A study of Mus musculus with 8 samples.

Results

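Platelet-derived growth factor (PDGF) genes were followed in mesenchymal cells of the mouse liver. The 6 members were the 4 ligand genes Pdgfa, Pdgfb, Pdgfc and Pdgfd and the receptor genes Pdgfra and Pdgfrb, taken by symbol from the 30395 gene identifiers listed in each library. RNA had been sequenced by SMART-Seq2, a full-length cDNA method, from cells sorted after liver perfusion, enzyme digestion and a density gradient. The 8 libraries came from Gli1+ peribiliary mesenchymal cells or from stellate cells, and each population was taken from livers without injury and 5 d after bile duct ligation (BDL), with 2 libraries in each of the 4 groups. In BDL the bile duct is tied, and bile backs up into the liver. Every mouse, stellate cell donors included, was 8 weeks old, of strain Mixed (C57BL/6, SWR/J) and of genotype Gli1:CreER+/-; Ai9+/-. CreER in this line is made where the Gli1 gene is active, and Ai9 is a fluorescent reporter that Cre recombination turns on, so the reporter marks cells in which that gene was active when Cre was induced. The sources used here do not give the gates of the sort. The labels number the libraries of a group without naming animals, so every p-value below rests on the spread between libraries alone, and that spread may be technical.

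PDGFs are dimers that bind a pair of receptor tyrosine kinases on mesenchymal cells. The A and B chains are cut inside the producing cell, whereas the C and D chains are secreted in a latent form whose CUB domain must be removed outside the cell, for the C chain by tissue plasminogen activator and for the D chain by urokinase or matriptase. PDGF-A and PDGF-C act mainly through the alpha receptor, PDGF-D mainly through the beta receptor and PDGF-B through both, and in the liver the beta receptor is best known for driving growth and migration of stellate cells after injury.

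Library totals ranged from 11261775 to 19180370 reads, so that 3 reads corresponded to 0.156 to 0.266 CPM (reads scaled to a common library total). Gli1, which drives the Cre, was read at 2.39 to 14.9 CPM in the Gli1+ libraries and at 0 to 0.0584 CPM in the stellate libraries. The summed CPM of 9 stellate markers was 21648 to 57414 in stellate libraries and 962 to 2187 in Gli1+ libraries, and that of 10 portal and adventitial fibroblast markers 28.9 to 126 and 2698 to 8394. The uninjured stellate libraries stood apart from each other, with summed macrophage markers of 11197 and 60.3 CPM. Gli1+ libraries also held markers of other cells. All 8 cholangiocyte markers summed to 3171 to 15388 CPM against 3.81 to 756 CPM in stellate libraries, and all 7 mesothelial markers to 2170 to 9172 CPM against 3.36 to 9.12 CPM. In bulk libraries of this kind, more cells that make a transcript and more transcript per cell cannot be told apart.

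Sequence upstream of RefSeq starts (GRCm38.p6) was at hand for 4 of the 6 members. Stretches of bases lying outside annotated exons are shown for these 4. All are written 5′ to 3′ on the strand of the gene, and the capitals in Pdgfd mark TATAAA, 160 to 155 bases before the RefSeq start.
Pdgfa, chr5:138995038-138995194, minus strand: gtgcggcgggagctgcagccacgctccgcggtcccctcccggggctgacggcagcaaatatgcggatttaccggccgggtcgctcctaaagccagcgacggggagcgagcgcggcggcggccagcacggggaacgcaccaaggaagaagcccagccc
Pdgfc, chr3:81036246-81036415, plus strand: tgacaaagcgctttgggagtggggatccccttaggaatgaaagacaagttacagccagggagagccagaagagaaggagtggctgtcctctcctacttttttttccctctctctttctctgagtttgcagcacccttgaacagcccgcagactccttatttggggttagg
Pdgfd, chr9:6168316-6168485, plus strand: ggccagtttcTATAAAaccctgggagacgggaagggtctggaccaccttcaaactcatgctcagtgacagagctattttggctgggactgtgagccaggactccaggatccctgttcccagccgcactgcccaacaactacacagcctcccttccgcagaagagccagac
Pdgfra, chr5:75152081-75152250, plus strand: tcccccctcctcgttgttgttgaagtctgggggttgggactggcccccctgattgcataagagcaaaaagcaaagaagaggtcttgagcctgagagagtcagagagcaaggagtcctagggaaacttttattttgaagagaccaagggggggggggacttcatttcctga
The Pdgfa stretch lay before the RefSeq start at 138994944 but inside the annotated span of the gene, chr5:138976014-138997370. This stretch was 72% G or C, whereas those of Pdgfc, Pdgfd and Pdgfra were 50.6%, 56.5% and 51.8%. Closer to the same RefSeq start Pdgfa carried a pair of GC boxes on the opposite strand, in capitals in a stretch of 24 bases. Unlike the stretches above, the one that follows reaches into annotated exon bases of Pdgfa, in which both boxes lie.
Pdgfa, chr5:138995016-138995039, minus strand: ccCCGCCCtCCGCCCcttccgtcc
The 250 bases before each start were searched on both strands. The GC box was spelled GGGCGG. For the TATA box the letters TATAAA were searched. An E-box was counted where the window read CACGTG. Egr sites were either of GCGTGGGCG or GCGGGGGCG, and Gli sites were GACCACCCA. Among all 32851 RefSeq promoters, 32.7% held the GC box, 12.4% the TATA box, 6.02% the E-box, 3.06% an Egr site and 0.225% the Gli site. In these members, matches were found for the GC box in Pdgfa and for the TATA box in Pdgfd. Those of Pdgfa lay before the RefSeq start at 138994944, used above, and before another at 138994281. The latter match was on the strand of the gene, 60 to 55 bases before that start. The Gli, Egr and E-box letters were not in these windows.

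In sum, ligand transcripts were higher in Gli1+ cells and receptor transcripts were higher in stellate cells. To set genes beside each other, CPM was divided by the summed length of the exons of each gene (CPM per kb). The 4 ligands together came to 45.2 and 56.0 CPM per kb in uninjured Gli1+ libraries and to 78.5 and 56.7 after BDL. In stellate libraries they came to 14.1 and 15.9 CPM per kb in uninjured liver and to 14.9 and 28.0 after BDL. No stellate library reached the lowest Gli1+ library. The receptors together came to 43.5 and 27.1 CPM per kb in uninjured Gli1+ libraries and to 25.5 and 38.9 after BDL. In stellate libraries they came to 77.2 and 143 CPM per kb in uninjured liver and to 136 and 198 after BDL. A stellate library thus held 5.46 to 9.18 CPM per kb of receptor for each CPM per kb of ligand, and a Gli1+ library 0.326 to 0.961.

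All 4 stellate libraries had the same leading order of levels per kb: Pdgfrb, Pdgfra, Pdgfa, Pdgfd, with Pdgfb and Pdgfc last. Gli1+ libraries had no common order. Pdgfra led 1 of them, Pdgfa 1 and Pdgfd 2, and Pdgfb and Pdgfc were the lowest in all 4. The order of Pdgfa and Pdgfd, and the shares below, depend on the length used. The longest coding transcript is 2.06 kb for Pdgfa, against 3.119 kb of exon, but 3.131 against 3.154 kb for Pdgfd. Dividing by it would raise Pdgfa relative to Pdgfd. Pdgfa and Pdgfd made up most of the ligand level in every library. Pdgfa took 31.8% to 52.1% of the summed ligand CPM per kb in Gli1+ libraries and 51.0% to 64.8% in stellate libraries, and Pdgfd took 21.7% to 50.5% and 19.9% to 49.0%.

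**Figure D1:**
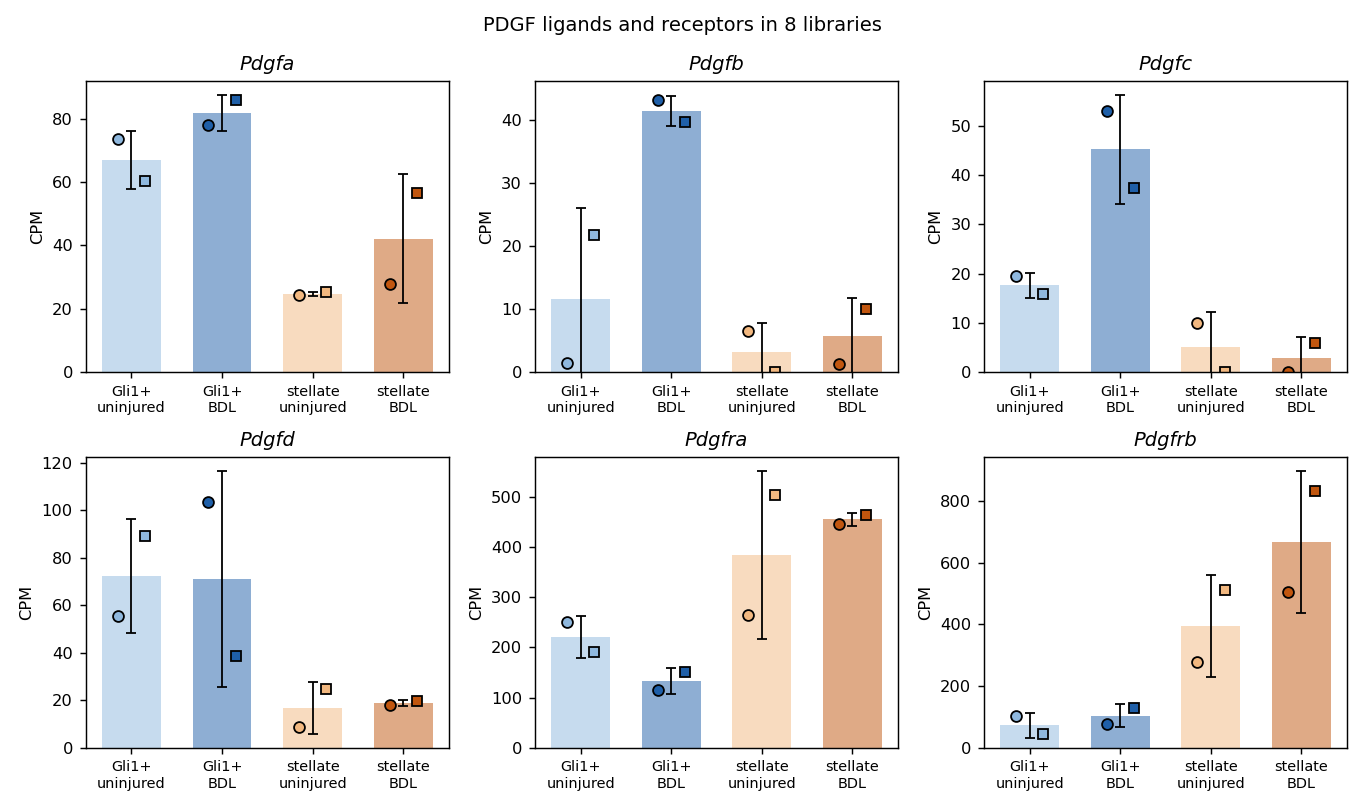
CPM of each member in the 4 groups. Bars are means of 2 libraries, error bars the SD (cut off at 0), circles replicate 1 and squares replicate 2; each panel has its own scale from 0. The 4 Gli1+ libraries lie above the 4 stellate libraries for Pdgfa, Pdgfc and Pdgfd and under them for Pdgfra and Pdgfrb, and the populations overlap for Pdgfb.

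Pdgfa encodes the A chain, a ligand of the alpha receptor (ENSMUSG00000025856.15, GRCm38 chr5:138976014-138997370, minus strand). It was read at 73.4 and 60.4 CPM in uninjured Gli1+ libraries, 24.3 and 25.2 in uninjured stellate libraries, 77.9 and 85.8 in Gli1+ libraries after BDL and 27.7 and 56.6 in stellate libraries after BDL. All 4 Gli1+ libraries were above all 4 stellate libraries, the nearest being stellate BDL replicate 2. The mean was 2.70-fold higher in Gli1+ cells in uninjured liver (66.9 ± 9.24 against 24.8 ± 0.632 CPM, SD, n = 2) and 1.94-fold higher after BDL (81.9 ± 5.65 against 42.2 ± 20.4 CPM). An antisense gene, 6330403L08Rik, shares 813 exon bases with Pdgfa and was listed at 6.21% to 35.3% of its CPM, the top share being in stellate BDL replicate 2. Whether counting used strand was not given in the sources used here, and reads of the antisense gene and of Pdgfa may be mixed.

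Pdgfb encodes the B chain, the ligand of both receptors that endothelial cells and platelets use to recruit mural cells (ENSMUSG00000000489.6, chr15:79995874-80014977, minus strand). It was read at 1.42 and 21.9 CPM in uninjured Gli1+ libraries and at 6.48 and 0 CPM in uninjured stellate libraries. After BDL it was read at 43.2 and 39.8 CPM in Gli1+ libraries and at 1.34 and 10.02 CPM in stellate libraries. The 2 Gli1+ BDL libraries were the highest of the 8 and close to each other, and the other 3 groups overlapped. The Gli1+ BDL mean (41.5 ± 2.44 CPM) was 7.30-fold that of stellate cells after BDL (5.68 ± 6.14) and 3.56-fold that of uninjured Gli1+ cells (11.6 ± 14.4). None of these differences passed the test across all genes given below. Of the endothelial markers, all 11 were read in every Gli1+ library, at a sum of 882 and 184 CPM in uninjured liver and 747 and 1190 CPM after BDL. Of 7 megakaryocyte and platelet markers, the sum was 13.9 and 15.1 CPM in uninjured Gli1+ libraries and 50.4 and 67.6 CPM after BDL, nearly all of it Pf4 and Itga2b, while Gp9 and Gp6 were at 0 to 0.484 CPM. In stellate BDL libraries the sums were 2209 and 1562 CPM for the endothelial and 223 and 222 CPM for the platelet markers. In uninjured stellate libraries they were 599 and 143 CPM and 75.1 and 220.1 CPM. The part of these cells in the Pdgfb values was not tested, nor was that of the cholangiocytes and macrophages whose markers are given above.

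Pdgfc encodes the C chain, a latent ligand of the alpha receptor (ENSMUSG00000028019.9, chr3:81036416-81214040, plus strand). Uninjured Gli1+ libraries held 19.4 and 15.9 CPM, and those taken after BDL 53.0 and 37.4 CPM. In stellate libraries it was read at 10.03 and 0.0521 CPM (1 read) in uninjured liver and at 0 and 5.86 CPM after BDL. Every Gli1+ library was above every stellate library, and the 2 uninjured stellate libraries lay further apart than the means of the stellate groups. The mean was 3.5-fold higher in Gli1+ cells in uninjured liver (17.7 ± 2.53 against 5.04 ± 7.06 CPM) and 15.4-fold higher after BDL (45.2 ± 11 against 2.93 ± 4.14 CPM).

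Pdgfd encodes the D chain, a latent ligand of the beta receptor (ENSMUSG00000032006.14, chr9:6168584-6378850, plus strand). Its level was 55.2 and 89.3 CPM in uninjured Gli1+ libraries, 8.87 and 24.5 in uninjured stellate libraries, 103 and 38.7 in Gli1+ libraries after BDL and 17.8 and 19.8 in stellate libraries after BDL. The 4 Gli1+ libraries were again above the 4 stellate libraries. Within the Gli1+ cells, the uninjured libraries lay between the BDL libraries. The mean was 4.33-fold higher in Gli1+ cells in uninjured liver (72.3 ± 24.1 against 16.7 ± 11.1 CPM) and 3.78-fold higher after BDL (71.0 ± 45.6 against 18.8 ± 1.41 CPM).

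Pdgfra encodes the alpha receptor, widely used as a marker of fibroblasts (ENSMUSG00000029231.15, chr5:75152292-75198215, plus strand). Levels were 250 and 191 CPM in uninjured Gli1+ libraries, 265 and 503 in uninjured stellate libraries, 114 and 152 in Gli1+ libraries after BDL and 446 and 464 in stellate libraries after BDL. All 4 Gli1+ libraries were under all 4 stellate libraries, narrowly so in uninjured liver, where the nearest pair stood at 250 and 265 CPM. The stellate mean was 1.74-fold the Gli1+ mean in uninjured liver (384 ± 168 against 220.3 ± 41.6 CPM) and 3.42-fold after BDL (455 ± 13.2 against 133 ± 26.5 CPM).

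Pdgfrb encodes the beta receptor, the receptor through which PDGF-B and PDGF-D act on stellate cells and pericytes (ENSMUSG00000024620.11, chr18:61045150-61085061, plus strand). Levels were 102 and 44.3 CPM in uninjured Gli1+ libraries, 278 and 511 in uninjured stellate libraries, 77.5 and 130 in Gli1+ libraries after BDL and 504 and 831 in stellate libraries after BDL. The lowest stellate library was above the highest Gli1+ library. The stellate mean was 5.41-fold the Gli1+ mean in uninjured liver (395 ± 165 against 73.0 ± 40.5 CPM) and 6.43-fold after BDL (668 ± 231 against 104 ± 37.1 CPM). Smooth muscle and mural markers, 8 in all, summed to 2300 and 9353 CPM in uninjured stellate libraries and 1924 and 2591 CPM after BDL. In Gli1+ libraries they summed to 1127 to 1330 CPM. By the test given below, 5 of the 8 were higher and 1 lower in Gli1+ cells averaged over both conditions. The shares of all genes were 12% and 4.91%. The part of mural cells in the receptor values was not tested.

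These differences were tested across the 16446 genes that reached 1 CPM in 2 or more libraries. The fit was limma-trend on log2(CPM + 1) with 4 group means, and a gene was called at a Benjamini-Hochberg (BH) adjusted p under 0.05 over all genes. Fold changes are given on that scale with their SE, and those of genes with few reads come out too small on it. In uninjured liver, 1 of the 6 members was called, as lower in Gli1+ cells, beside 11.1% of all genes called in either direction and 3.02% called lower. Pdgfrb was lower in Gli1+ cells, by -2.47 ± 0.51 with a limma adjusted p of 0.0173. Log2 fold changes of the others were 1.39 for Pdgfa, 1.44 for Pdgfb, 2.45 for Pdgfc, 2.17 for Pdgfd and -0.74 for Pdgfra, with limma adjusted p from 0.0652 for Pdgfd to 0.572 for Pdgfb. Without uninjured stellate replicate 2, Pdgfd was called (adjusted p 0.0320). For 5 of the 6, all but Pdgfb, the libraries of the populations did not overlap, as was so for 45.7% of all genes. The Pdgfrb call ended without uninjured Gli1+ replicate 2 (adjusted p 0.0962) and without uninjured stellate replicate 2 (0.0600), and in a fit of these 2 groups alone (0.0684).

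After BDL, 2 of the 6 members were called, beside 6.8% of all genes, both of them receptors called lower, as were 2.36% of all genes. Pdgfra was lower in Gli1+ cells by -1.78 ± 0.37 (limma adjusted p = 0.0234) and Pdgfrb by -2.68 ± 0.51 (0.0167). The ligands had log2 fold changes of 1.02 for Pdgfa, 3.06 for Pdgfb, 4.12 for Pdgfc and 1.70 for Pdgfd, with limma adjusted p of 0.235, 0.266, 0.0987 and 0.176. Pdgfc was called in a fit of these 2 groups alone (0.0377), with a pseudocount of 5 (0.0427) and without either uninjured stellate library (0.0300 and 0.0356). All 6 members had libraries that did not overlap between the populations, beside 53.9% of all genes. Leaving out any 1 of the 4 BDL libraries ended both receptor calls, with adjusted p of 0.0875 to 0.184 for Pdgfra and 0.0656 to 0.160 for Pdgfrb.

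Averaged over both conditions, 5 of the 6 members were called, beside 16.9% of all genes, 3 of them higher (12% of all genes) and 2 lower (4.91%). Pdgfa was higher in Gli1+ cells by 1.21 ± 0.31 (limma adjusted p = 0.0278), Pdgfc by 3.28 ± 0.89 (0.0369) and Pdgfd by 1.93 ± 0.45 (0.0198). Pdgfra was lower by -1.26 ± 0.26 (0.0119) and Pdgfrb by -2.57 ± 0.36 (0.00172). Pdgfb, at 2.25 ± 0.97, had an adjusted p of 0.157. The same 5 members had 4 Gli1+ libraries that did not overlap the 4 stellate libraries, beside 18.9% of all genes. The median of all genes was 0.28 on this scale and 0.13 after TMM scaling, which moved the adjusted p of Pdgfa to 0.0548 and left the other 4 called.

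How far the averaged calls rested on single libraries differed by gene. Pdgfrb remained called when each of the 8 libraries was left out in turn, with a largest adjusted p of 0.0144. Pdgfra was not called without Gli1+ BDL replicate 1 or either stellate BDL library (0.0541 to 0.0561). Pdgfd was not called without uninjured Gli1+ replicate 2, Gli1+ BDL replicate 1 or either stellate BDL library (0.0679 to 0.0906). Pdgfa was not called without any 1 of the 4 Gli1+ libraries or stellate BDL replicate 1 (0.0540 to 0.109). Pdgfc was not called without any 1 of the 4 Gli1+ libraries, uninjured stellate replicate 2 or stellate BDL replicate 1 (0.0532 to 0.134), nor on recovered reads with edgeR (0.305) or DESeq2 (0.144). The other ligands also depended on the method. In alternative fits that kept all 8 libraries, the averaged call of Pdgfa was lost in 4 and kept in 5. That of Pdgfd was lost in 2 and kept in 7, and that of Pdgfc lost in 5 and kept in 4. The calls of both receptors were kept in all 9.

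**Figure D2:**
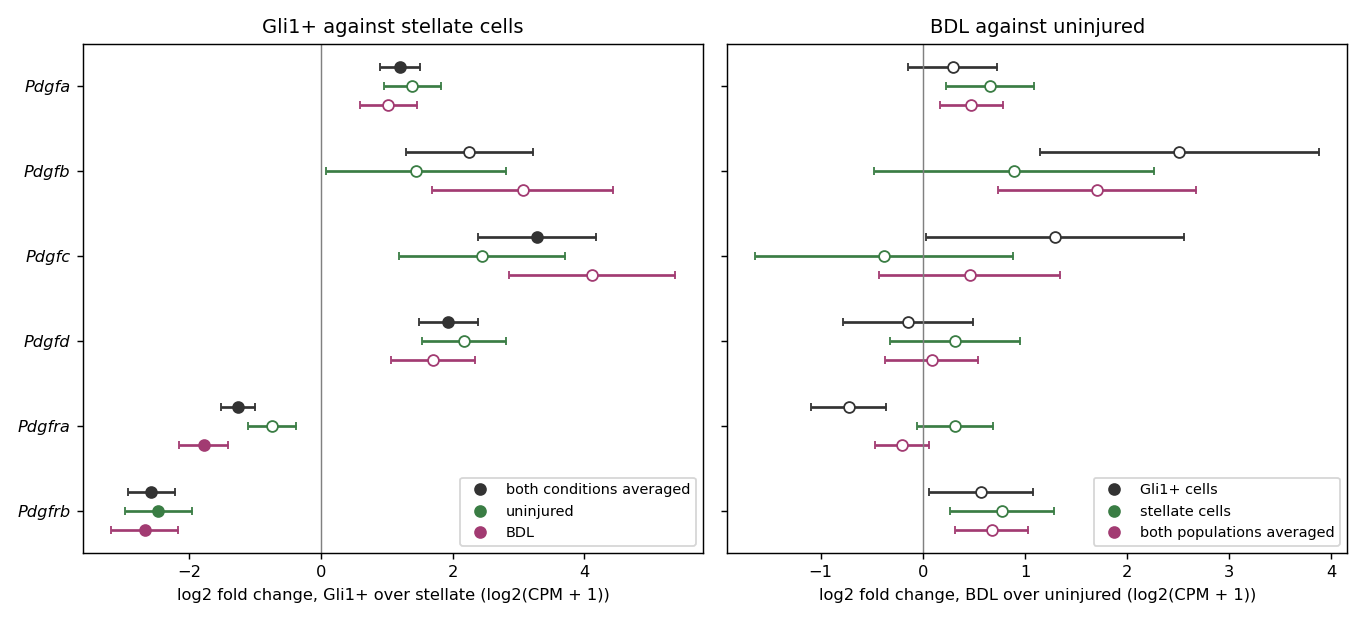
Log2 fold changes of the 6 members on the log2(CPM + 1) scale, Gli1+ over stellate cells at left and BDL over uninjured at right. Points are limma estimates, bars their SE, and filled points have a BH-adjusted p under 0.05 over all genes. At left the ligands lie above 0 and the receptors under it, and at right every point is open.

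The balance of the receptors was taken as log2 of Pdgfrb over Pdgfra, both per kb. It was -0.42 and -1.22 in uninjured Gli1+ libraries, 0.31 and 0.65 in Gli1+ libraries after BDL, 0.94 and 0.89 in uninjured stellate libraries and 1.05 and 1.71 in stellate libraries after BDL. All 4 stellate libraries were above all 4 Gli1+ libraries. Alpha receptor transcript was above beta receptor transcript in the uninjured Gli1+ libraries alone. The mean was -0.17 ± 0.83 in Gli1+ and 1.15 ± 0.38 in stellate libraries (SD, n = 4), a difference of -1.32 with a two-sided exact permutation p of 0.0286, the smallest that 70 splits allow. With splits made only within a condition, the exact p was 0.0556, the smallest that 36 splits allow. Without any 1 of the 4 stellate libraries the exact permutation p was 0.0571.

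BDL libraries had a higher balance than uninjured libraries of the same population, without overlap in either. Over both populations the mean was 0.93 ± 0.60 after BDL and 0.05 ± 1.06 in uninjured liver (SD, n = 4). The difference of 0.88 had a two-sided exact permutation p of 0.229 over 70 splits, and of 0.0556, the smallest possible, with the 36 splits made within populations. The difference was 0.46 without uninjured Gli1+ replicate 2. The level at which alpha and beta receptor transcripts are equal depends on the length used. With the longest coding transcript in place of all exons, the ratio of Pdgfrb to Pdgfra was 0.856 and 1.08 in Gli1+ BDL libraries, where all exons gave 1.24 and 1.56.

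**Figure D3:**
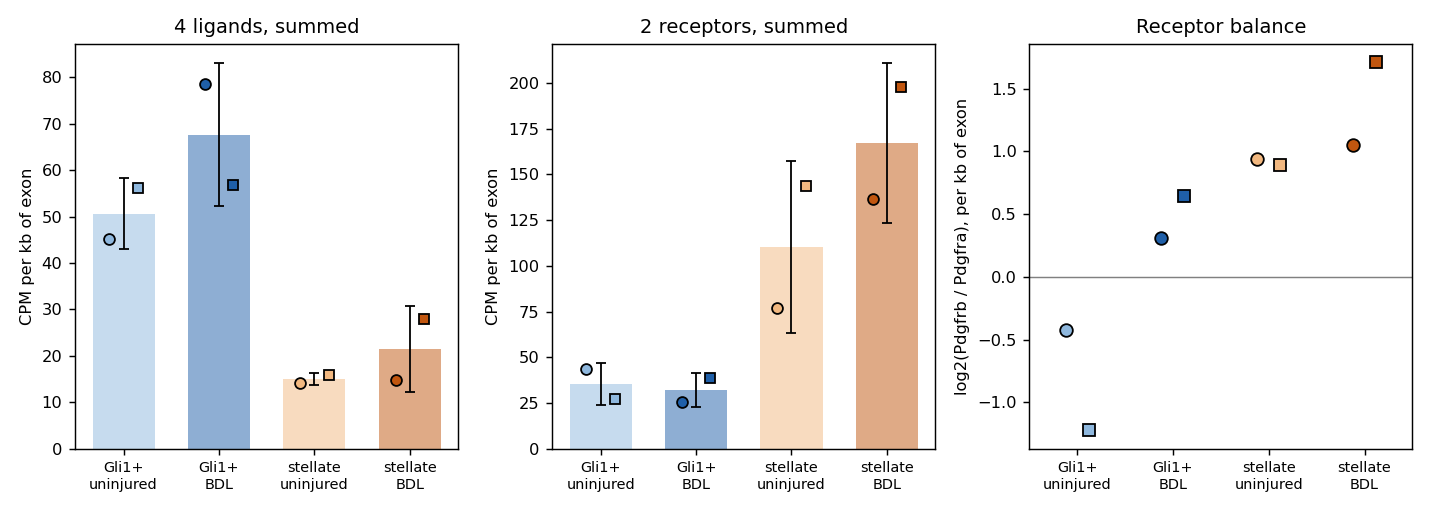
Summed ligand CPM per kb of exon, summed receptor CPM per kb and the log2 ratio of Pdgfrb to Pdgfra per kb in the 8 libraries. Bars are means of 2 libraries, error bars the SD, circles replicate 1 and squares replicate 2. Gli1+ libraries are above all stellate libraries for ligands and under them for receptors and for the ratio.

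In neither population did a member pass the test for a BDL response. In Gli1+ cells no gene of 16446 did by limma or by edgeR, while 1812 had an unadjusted p under 0.05 and DESeq2 called 412. The log2 fold changes of the members, BDL over uninjured, were 0.29 for Pdgfa, 2.51 for Pdgfb, 1.29 for Pdgfc, -0.15 for Pdgfd, -0.73 for Pdgfra and 0.57 for Pdgfrb, with limma adjusted p of 0.548 for Pdgfra to 0.973 for Pdgfd. Pdgfa, Pdgfb and Pdgfc were higher and Pdgfra was lower in both BDL libraries than in both uninjured libraries, and 41.3% of all genes had libraries without overlap in this comparison. In stellate cells, where 0.225% of all genes were called, the 6 fold changes lay between -0.38 for Pdgfc and 0.89 for Pdgfb. Pdgfa alone of the 6 had libraries without overlap, beside 39.6% of all genes, at a log2 fold change of 0.66 ± 0.43 (limma adjusted p = 0.612). Markers of hepatocytes moved with BDL in both populations. All 9 had positive log2 fold changes in each, with a median of 4.88 in Gli1+ and 4.50 in stellate cells, and their summed CPM went from 1166 and 204 to 2988 and 15568 in Gli1+ libraries and from 166 and 73.9 to 1797 and 1963 in stellate libraries. None was called in either population, and 5 were called higher averaged over both. Their part in the BDL responses was not tested.

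The difference between these responses, Gli1+ minus stellate, was called for none of the 6 and for 0.0122% of all genes. It was 1.62 ± 1.93 for Pdgfb, 1.67 ± 1.78 for Pdgfc and -1.04 ± 0.52 for Pdgfra, with limma adjusted p of 0.919, 0.902 and 0.713. An SE of 1.78 or 1.93 leaves room for several-fold differences in either direction, so similar responses are not shown. Averaged over both populations the BDL response was called for none of the 6 and for 0.949% of all genes. The smallest adjusted p among the members was 0.407, for Pdgfrb at 0.68 ± 0.36, followed by 0.440 for Pdgfb at 1.70 ± 0.97.

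Some genes that act on the ligands before they reach a receptor differed between the populations. Of 11 tested genes for ligand processing, binding and co-receptors, 3 were called higher and none lower in uninjured Gli1+ cells, beside 8.06% and 3.02% of all genes. After BDL 1 was called higher and 1 lower, beside 4.44% and 2.36% of all genes. Averaged over both conditions 3 were called higher and 1 lower, beside 12% and 4.91%, and 7 did not pass the test. There the median log2 fold change of the 11 was 1.16, against 0.28 over all genes. St14 encodes matriptase, a protease that can release active PDGF-D. It was read at 34.9 and 8.62 CPM in uninjured Gli1+ libraries and at 99.4 and 65.4 CPM after BDL, but in stellate libraries at 1 read in all of the uninjured libraries and at 0 after BDL. It was thus at least 769-fold higher in Gli1+ cells after BDL, counted from 3 reads over the stellate group. Its averaged log2 fold change was 5.26 ± 0.61 (limma adjusted p = 0.000690). Matriptase is made by epithelial cells, and St14 was high in the libraries in which Epcam, an epithelial marker, was at 172 to 1077 CPM. Epcam was at 0.0521 to 1.10 CPM in stellate libraries. The part of epithelial cells in the St14 value was not tested. Plau, which encodes urokinase, was low throughout. It was read at 4.08 and 9.70 CPM in uninjured Gli1+ libraries and at 2.02 and 0.958 CPM after BDL. Stellate libraries held 0.306 and 0.104 CPM in uninjured liver and 0.0584 and 1.95 CPM after BDL.

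Plat encodes tissue plasminogen activator, the protease that releases active PDGF-C. It was read at 238 and 177 CPM in uninjured Gli1+ libraries and at 0.0612 and 0.104 CPM (3 reads in all) in uninjured stellate libraries. After BDL it was read at 195 and 138 CPM in Gli1+ libraries and at 85.9 and 167 CPM in stellate libraries. Both uninjured stellate libraries were thus far under the other 6. The Gli1+ BDL libraries overlapped the uninjured Gli1+ and the stellate BDL libraries, which did not overlap each other. The ratio of Gli1+ to stellate cells in uninjured liver was 2376 (exact 95% interval 812 to 11522, covering counting error only), and that of BDL to uninjured stellate cells 1409 (482 to 6837). Plat rose in stellate cells by 6.80 ± 0.45 (limma adjusted p = 0.00148). That call was lost by limma-voom, in a fit of these 2 groups alone and without stellate BDL replicate 2. The largest adjusted p among the 18 alternatives was 0.221. Its responses in the populations differed by -7.12 ± 0.64 (limma adjusted p = 0.0175), a call lost without either uninjured Gli1+ library and without any 1 of the 4 BDL libraries, where it reached 0.409. In stellate cells after BDL, Plat stood beside summed endothelial markers of 2209 and 1562 CPM, against 599 and 143 CPM before, and all 11 endothelial markers had positive log2 fold changes there, none of them called. Hepatocyte markers moved further in the same libraries, as given above, and summed cholangiocyte markers went from 7.03 and 3.81 CPM to 181 and 756 CPM. The part of these cells in the Plat values was not tested.

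Pcsk6, a proprotein convertase of the family that cuts the A and B chains, was read at 175 and 47.2 CPM in uninjured Gli1+ libraries, 10.7 and 0.104 in uninjured stellate libraries, 42.2 and 37.9 in Gli1+ libraries after BDL and 2.69 and 2.55 in stellate libraries after BDL. It was higher in all 4 Gli1+ libraries, with an averaged log2 fold change of 4.09 ± 0.78 (limma adjusted p = 0.00782). Furin, the best known of these convertases, was at 25.2 to 58.1 CPM in every library and had an averaged log2 fold change of -0.12 ± 0.36. Lrp1, an endocytic receptor that associates with the beta receptor, was read at 656 and 576 CPM in uninjured Gli1+ libraries, 1490 and 960 in uninjured stellate libraries, 286 and 460 in Gli1+ libraries after BDL and 1553 and 1574 in stellate libraries after BDL. Like both PDGF receptors it was lower in all 4 Gli1+ libraries, by -1.53 ± 0.25 averaged (limma adjusted p = 0.00377). The averaged calls of St14, Plat, Pcsk6 and Lrp1 remained in all 17 alternatives, leaving out each library included. In uninjured liver the call of Pcsk6 was lost in 12 of 18 alternatives, including leaving out any library but uninjured stellate replicate 1, that of St14 in 4, including leaving out uninjured Gli1+ replicate 1, and that of Plat in none, and after BDL those of St14 and Lrp1 were each lost without Gli1+ BDL replicate 1 or either stellate BDL library.

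Of 33 tested genes of signalling next to the receptor, 1 was called higher and 1 lower in Gli1+ cells in each of the uninjured, BDL and averaged comparisons. These 2 of 33 were a smaller share than the 11.1%, 6.8% and 16.9% of all genes called in these comparisons. Slc9a3r1 encodes NHERF1, a scaffold that binds the tail of PDGF receptors. It was read at 215 and 849 CPM in uninjured Gli1+ libraries and 213 and 273 after BDL, against 15.4 and 2.19 CPM in uninjured and 12.6 and 23.3 CPM in BDL stellate libraries. Its averaged log2 fold change was 4.81 ± 0.59 (limma adjusted p = 0.000933). NHERF1 is abundant in epithelia, and its part in the cholangiocyte and mesothelial signal given above was not tested. Gab1, a docking protein that links receptor kinases to PI3 kinase and Ras, went the other way, at 23.8 to 37.8 CPM in the 4 Gli1+ libraries and 95.7 to 153 CPM in the 4 stellate libraries, with a fold change of -1.91 ± 0.28 (limma adjusted p = 0.00237). Both averaged calls remained in all 17 alternatives. Those after BDL were lost in 8 of 18 alternatives for Slc9a3r1 and in 7 for Gab1, including leaving out any 1 of the 4 BDL libraries, and the uninjured call of Gab1 was lost without uninjured Gli1+ replicate 1.

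Among 18 feedback genes, none was called higher and 2 were called lower in Gli1+ cells in uninjured liver, 1 lower after BDL and 2 lower averaged, beside 3.02%, 2.36% and 4.91% of all genes called lower. Spry1 encodes a Sprouty protein, an inhibitor of Ras and MAP kinase signalling that growth factor receptors induce. It was read at 14.99 to 52.2 CPM in Gli1+ libraries and at 333 to 510 CPM in stellate libraries, a fold change of -3.53 ± 0.37 averaged (limma adjusted p = 0.000412). Its call after BDL was lost without stellate BDL replicate 2 (0.0597). Dusp6, a phosphatase of ERK, was lower by -1.28 ± 0.28 (0.0155), a call lost without stellate BDL replicate 1, uninjured Gli1+ replicate 1 or either of the Gli1+ BDL libraries, where it reached 0.0775. Its uninjured call was lost in 11 of 18 alternatives, including leaving out any library but uninjured stellate replicate 1. Spry2, a relative of Spry1, followed injury instead. It stood at 401 and 471 CPM in uninjured and 51.1 and 65.6 CPM in BDL Gli1+ libraries, and at 279 and 426 CPM in uninjured and 118 and 134 CPM in BDL stellate libraries. Each BDL library was under each uninjured library of either population, and the averaged BDL response was -2.17 ± 0.23 (limma adjusted p = 0.0137). That call was lost without either uninjured Gli1+ library, Gli1+ BDL replicate 2 or either stellate BDL library, where it reached 0.133.

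**Figure D4:**
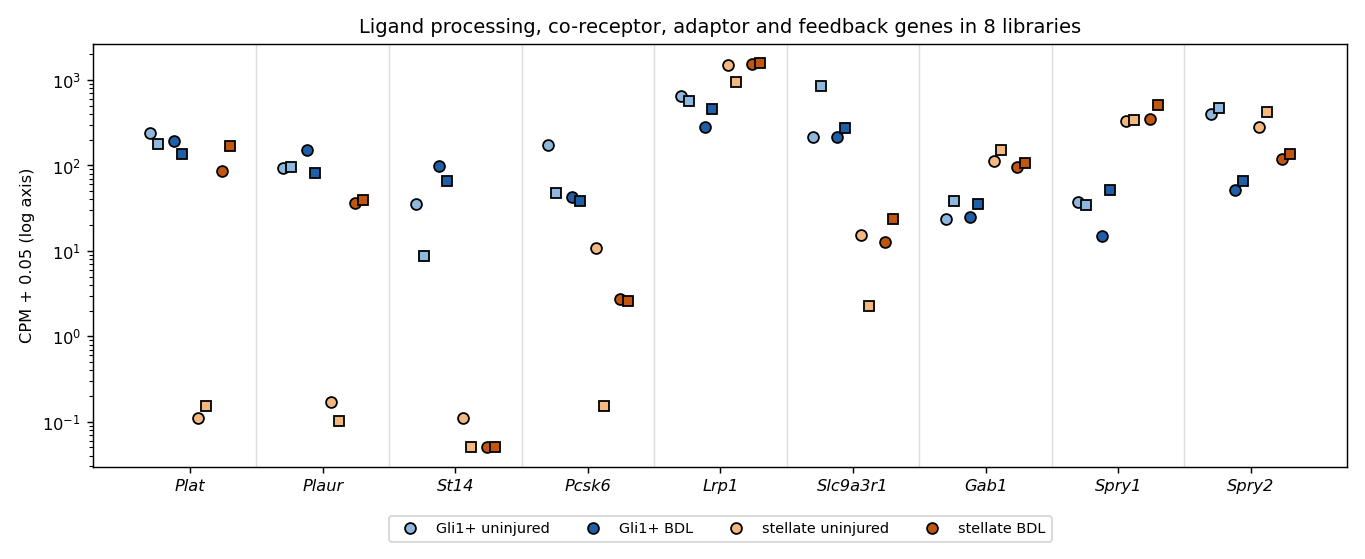
CPM + 0.05 on a log axis of 9 genes of ligand processing, co-receptors, adaptors and feedback in the 8 libraries. Circles are replicate 1 and squares replicate 2, and colours mark the groups. Plat and Plaur are near the bottom in uninjured stellate libraries alone, St14 in all stellate libraries, and Spry2 is lower after BDL in both populations.

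Genes that growth factors switch on rapidly made a list of 21, of which 20 passed the filter on low values. In uninjured liver 2 were called higher and none lower in Gli1+ cells, beside 8.06% and 3.02% of all genes. After BDL none was called higher and 4 were called lower, beside 4.44% and 2.36%. Egr1, a zinc finger factor induced by PDGF in many cells, was read at 568 and 737 CPM in uninjured Gli1+ libraries, 157 and 242 in uninjured stellate libraries, 173 and 263 in Gli1+ libraries after BDL and 941 and 602 in stellate libraries after BDL. Its fold change between the populations was 1.72 ± 0.38 in uninjured liver (limma adjusted p = 0.0220) and -1.81 ± 0.38 after BDL (0.0238). The difference of its BDL responses was -3.54 ± 0.53, with an adjusted p of 0.151. The uninjured call was lost without either uninjured Gli1+ library or uninjured stellate replicate 1, and the BDL call without any 1 of the 4 BDL libraries. Both calls were also lost by edgeR and without a filter. The uninjured call was lost too with TMM scaling and in a fit of the compared groups alone. In all, 7 of 18 alternatives ended the uninjured call of Egr1 and 6 of 18 its BDL call. The other genes called lower after BDL were Junb, Zfp36 and Ier2, at -1.95 ± 0.48, -1.92 ± 0.44 and -1.52 ± 0.33. Their calls were lost in 9, 7 and 5 of 18 alternatives, for Junb and Ier2 without any 1 of the 4 BDL libraries and for Zfp36 without either uninjured Gli1+ library, Gli1+ BDL replicate 1 or either stellate BDL library. Ier2 is named as the remaining called gene, after its value was seen. What induced the genes of this list, PDGF or another stimulus, was not tested.

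Plaur, the urokinase receptor, belongs to the same list and, like Plat, was lowest in uninjured stellate libraries. It was read at 93.1 and 97.1 CPM in uninjured Gli1+ libraries and 153 and 80.6 CPM after BDL. In stellate libraries it was at 0.122 and 0.0521 CPM in uninjured liver and 36.1 and 39.3 CPM after BDL. Unlike Plat, Plaur was lower in both stellate BDL libraries than in all 4 Gli1+ libraries. It was higher in Gli1+ cells by 4.0 ± 0.35 averaged (limma adjusted p = 0.000180), in all 17 alternatives. In stellate cells it rose by 5.15 ± 0.50 after BDL (limma adjusted p = 0.00917), a call lost in 8 of 18 alternatives. These were limma-voom, a fit of the 2 groups alone, and leaving out any 1 of the 4 Gli1+ libraries or either stellate BDL library. Other members of the list called higher in Gli1+ cells on average were Ptgs2, the inducible cyclooxygenase, at 3.37 ± 0.97 and Hbegf, an epidermal growth factor relative, at 2.14 ± 0.47. Jun and Zfp36 were called lower at -1.49 ± 0.42 and -1.35 ± 0.31. Leaving out stellate BDL replicate 1 ended all 4 calls. So did each other library but uninjured Gli1+ replicate 1 for Ptgs2, each other but uninjured stellate replicate 1 and stellate BDL replicate 2 for Jun, either uninjured Gli1+ library for Zfp36, and uninjured Gli1+ replicate 1, Gli1+ BDL replicate 1 or stellate BDL replicate 2 for Hbegf.

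The relatives of the PDGFs in the vascular endothelial growth factor (VEGF) family, with the receptors related to Pdgfra, made a list of 12. In Gli1+ cells 3 were called higher in uninjured liver, 1 after BDL and 3 on average, all ligands, beside 8.06%, 4.44% and 12% of all genes called higher. None was called lower. Vegfd, which has the same growth factor fold as the PDGFs, was read at 89.7 and 108 CPM in uninjured Gli1+ libraries and 37.8 and 59.0 after BDL. In stellate libraries it was read at 2.08 and 0 CPM in uninjured liver and 6.31 and 4.42 after BDL. It was higher in Gli1+ cells by 4.38 ± 0.51 averaged (limma adjusted p = 0.000674). Vegfa averaged 44.8 ± 18.2 CPM against 1.98 ± 2.80 CPM in uninjured liver and 48.3 ± 13.8 against 18.3 ± 20.6 after BDL (SD, n = 2). Pgf, placental growth factor, averaged 18.3 ± 14.5 CPM in uninjured Gli1+ cells and had no read in uninjured stellate cells. It was at least 190.5-fold higher, counted from 3 reads over the group. After BDL the populations overlapped, with Pgf at 29.8 and 7.36 CPM in the Gli1+ libraries and at 13.5 and 3.23 CPM in the stellate libraries, which were at least 110.2-fold over uninjured stellate cells. The averaged call of Vegfd remained in 17 of 17 alternatives, and those of Vegfa and Pgf were lost in 8 and 10. In uninjured liver the calls of Vegfa and Pgf were lost in 11 of 18 alternatives each, and after BDL that of Vegfd was lost in 13, leaving out any library but the uninjured stellate ones among them. For Vegfa the uninjured call was lost without uninjured stellate replicate 1 or any 1 of the 4 Gli1+ libraries, and the averaged call without stellate BDL replicate 1 or any 1 of the 4 Gli1+ libraries. For Pgf the uninjured call was lost without each of the 8 libraries in turn, and the averaged call without each but uninjured Gli1+ replicate 2.

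The BDL responses of these lists held few calls. In Gli1+ cells no gene of the 5 lists was called. Genes of highest CPM in these lists included Sparc, a matrix protein that binds PDGF-B, at a log2 fold change of 0.49 ± 0.36, Stat3 at -0.62 ± 0.39, the feedback inhibitor Errfi1 at 0.36 ± 0.54 and the receptor genes Csf1r at -0.45 ± 1.67 and Kdr at 0.27 ± 0.67. Spry2 was closest to a call, at -2.89 ± 0.32 with a limma adjusted p of 0.0548. In stellate cells Plat and Plaur were the called genes. Kdr, a VEGF receptor and endothelial marker, had 2.96 ± 0.67 there with a limma adjusted p of 0.139.

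Genes whose log2(CPM + 1) followed each member most closely over the 8 libraries were sought among 10292 genes with a mean of at least 10 CPM. The values are a description over 8 libraries that share the population difference, and with so many genes compared some high values will occur. Pearson r was 0.995 for Cfap69, 0.992 for Prrx1 and 0.991 for Btc with Pdgfa. It was 0.983 for Myo5a, 0.958 for Arf5 and 0.956 for Spc25 with Pdgfb. For Pdgfc it was 0.993 with Dpy30, 0.980 with Dnajc25 and 0.976 with Slc22a18, and for Pdgfd 0.988 with Uap1, 0.982 with Cct4 and 0.971 with Cct5. The receptors had Arhgef11 (0.973), P2ry14 (0.967) and Ntf3 (0.966) with Pdgfra, and Ptpn9 (0.985), Emilin1 (0.975) and Olfml3 (0.975) with Pdgfrb. Prrx1 is a mesenchymal transcription factor and Emilin1 a protein of elastic fibres. No gene was shared between the lists of 2 members.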

How the data were processed

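The deposited values were CPM, 1 column per library headed as normalized counts per the file headers. FastQC, STAR 2.5.2b, featureCounts, DESeq2 and mm10 are named without roles per the submitters' processing notes; the annotation, the strand setting and the handling of multi-gene reads were not given in the sources used here. Each deposited CPM value was a whole multiple of 1 read within 0.1 read in 100% of values, so read counts were recovered for the alternatives. Of 30395 identifiers, 30233 matched GENCODE vM21 (GRCm38), which gave symbols, coordinates and exon lengths. All 8 libraries entered 1 fit by limma 3.58.1 (trend) in R 4.3.3 on log2(CPM + 1), with 4 residual degrees of freedom and 7 comparisons. Single values were compared by exact permutation. The labels state no pairing of libraries by replicate number. Deviations from group means correlated at -0.112 to 0.112 between groups, which cannot show whether libraries shared animals. The members, the 5 pathway lists and the 10 marker lists were chosen with earlier results of these data known. The 6 members were named in every comparison. From each list up to 3 called genes per direction that reached 5 CPM in the higher group were named, or else the 2 of highest CPM. Each member also got the 3 genes of highest correlation. Some genes that this rule names are not reported here. Furin, Ier2, Epcam and Plau were named after their values were seen. Alternatives were TMM scaling, edgeR 4.0.16, DESeq2 1.42.0, limma-voom, pseudocounts of 0.1 and 5, no filter, a filter at 5 CPM, the compared groups alone, a replicate block and leaving out each library. Fits were tested on simulated data. Intervals and floors cover counting error only, since PCR copies are not told apart.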

Additional observations from a re-analysis of the deposited data

Results flagged for a closer look

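Of 16446 genes, 2 were called for a difference of BDL responses between the populations. Plat, which encodes tissue plasminogen activator, was the 1 of them among the members and lists. In Gli1+ cells it was at 207 ± 43.1 CPM in uninjured liver and 166 ± 40.5 CPM after BDL, and in stellate cells at 0.0827 ± 0.0305 and 127 ± 57.4 CPM (SD, n = 2). The difference of the log2 fold changes was -7.12 ± 0.64 (SE), with a BH-adjusted p of 0.0175 over all genes by limma. Over its 17 alternatives the adjusted p ranged from 3.22e-18 to 0.475, and the call was lost in 10.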

How the results depend on the processing

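With 2 libraries a group, calls were limited to large changes. Of 1510 values of single genes under an alternative, 1212 kept direction and side of the threshold, 261 lost a call, 5 gained one and 32 changed sign, and the cause was not tested. Most comparisons of members were not called in the main fit and so had no call to lose. These totals thus do not give the share of calls lost. With DESeq2 the counts of called genes were 2996 (uninjured populations), 412 and 1023 (Gli1+ and stellate BDL responses), 389 (their difference) and 1109 (averaged BDL response). With edgeR they were 621 (populations after BDL), 62 (stellate response) and 11 (difference), and with limma-voom 592, 0 and 0 for these 3 and 2 for the averaged response. Without a filter they were 810, 127, 6, 0 and 0 (uninjured populations, Gli1+ and stellate responses, difference, averaged response), and with the compared groups alone 474, 1889 and 0 (populations uninjured and after BDL, stellate response). A pseudocount of 5 gave 49, 19, 0 and 88 (both responses, difference, averaged), a pseudocount of 0.1 gave 97 and TMM 23 for the stellate response, and a filter at 5 CPM gave 3 for the Gli1+ response. Of the members, none was called without a filter or with the compared groups alone in uninjured liver; after BDL edgeR called 1 and no filter 0; averaged, edgeR and limma-voom called 3 and no filter 2. The balance between populations was -1.32 with an exact permutation p of 0.0556 in splits within a condition.

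The replicate block treats libraries of the same number as paired, which the labels do not state. It gave 18 called genes for the stellate response, 0 for the difference and 42 for the averaged response. It also ended the averaged call of Pdgfc (limma adjusted p 0.0512).

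Leaving out 1 library gave 1022 to 1808 called genes (uninjured populations), 145 to 1375 (after BDL), 1470 to 3162 (averaged populations), 0 to 5 (Gli1+ response), 0 to 219 (stellate response), 0 to 33 (difference) and 0 to 361 (averaged response). Members called ranged from 0 to 1 (uninjured), 0 to 3 (BDL) and 1 to 5 (averaged), and the balance from -1.59 to -0.97 between populations and 0.46 to 1.18 for BDL.

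Signs changed for uncalled members. Pdgfb had -0.36 by limma-voom for the difference; for the averaged response Pdgfc had -0.027 by limma-voom, and Pdgfd -0.080 by DESeq2, -0.046 by edgeR and -0.040 by limma-voom; Pdgfd had -0.027 by DESeq2 in stellate cells. Leaving out 1 library, the ranges were, for Pdgfb, -0.18 to 3.06 between uninjured populations, -0.56 to 2.35 in stellate cells and -0.00053 to 3.24 for the difference; for Pdgfc, -2.07 to 1.32 in stellate cells, -0.022 to 3.37 for the difference and -0.39 to 1.30 averaged. They were, for Pdgfd, -0.84 to 0.55 in Gli1+ cells, -0.37 to 1.0 in stellate cells, -1.16 to 0.23 for the difference and -0.26 to 0.43 averaged. They were -0.016 to 1.16 in Gli1+ cells and -0.79 to 0.38 for the difference for Pdgfrb, -0.14 to 0.78 in stellate cells and -0.44 to 0.026 averaged for Pdgfra, and -0.87 to 0.14 for the difference for Pdgfa.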
